A study of Caenorhabditis elegans with 15 samples.

Results

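The RNA of whole young adult Caenorhabditis elegans before any immunoprecipitation was measured on 3 input arrays, which are the samples titled as inputs among the 15 arrays of a study of RNA bound by the protein GLD-1. The worms were synchronized, and their genotype was gld-1(q485), a loss-of-function allele, with ozIs2, which is an integrated transgene for GLD-1 joined to GFP and the FLAG tag. Total RNA of a whole worm lysate was used, 5 µg of each input was amplified once and labelled with biotin, and the other 12 arrays hold immunoprecipitates that are not analysed here. There was 1 group of 3 arrays and no second genotype or stage, so no test between conditions was possible, and all values below are descriptions of these arrays. The labels do not say whether the 3 inputs came from separate cultures, so the spread between them may be technical, and they state no sex. All probe sets but 77 array controls were described, out of 22625 on the array, and a gene that had several probe sets to itself was given the brightest, which left 17118 genes.

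An adult hermaphrodite consists largely of its gonad and its gut. The gonad carries germ cells from a mitotic stem cell pool through meiosis to sperm, which are made first and then stored, and to oocytes, which are packed with maternal RNA and yolk. The yolk is made in the intestine and taken up by oocytes, while the epidermis secretes a collagen cuticle and the neurons, though numerous, are small cells.

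Signal is given on the log2 scale as the mean of the 3 arrays ± SD (n = 3), and values in the order of input replicates 1, 2 and 3 are given where a gene is described in full. It is a signal of hybridization and not a count of molecules: it is not scaled to transcript length, and it also depends on the probes. Among 2981 genes with more than 1 probe set of their own, the brightest and the dimmest probe set of one gene differed by a median of 1.23 (quartiles 0.40 and 2.27), and the largest gap was 11.25, for rpl-8, which encodes a ribosomal protein (13.51 against 2.25). An order of genes by signal is thus an order of these probe sets, and in RNA from whole worms fewer cells of a type and less RNA per cell cannot be told apart.

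The lowest value of each array was 2.24, 2.28 and 2.21, and it was shared exactly by 4352, 4394 and 4261 probe sets. A gene within 0.1 of that lowest value on all 3 arrays is called at the minimum. By this rule 5891 of 17118 genes were at the minimum (34.4%), whereas 4083 had a mean of log2 7 or more (23.9%), 1410 had log2 9 or more (8.24%) and 342 had log2 11 or more (2.0%). The 32 Bacillus and yeast controls, whose RNA a worm does not make, read at most 2.41, 2.40 and 2.25, which is the range of values near the minimum. A value at the minimum limits what that probe set detected and does not show that the gene was silent. Some genes that every dividing or translating cell uses read low: rpl-42, a ribosomal protein, stood at 2.25 ± 0.03, cdk-2, a cell cycle kinase, at 2.24 ± 0.03, and cct-3, a chaperonin subunit, at 3.08 ± 0.32.

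**Figure D1:**
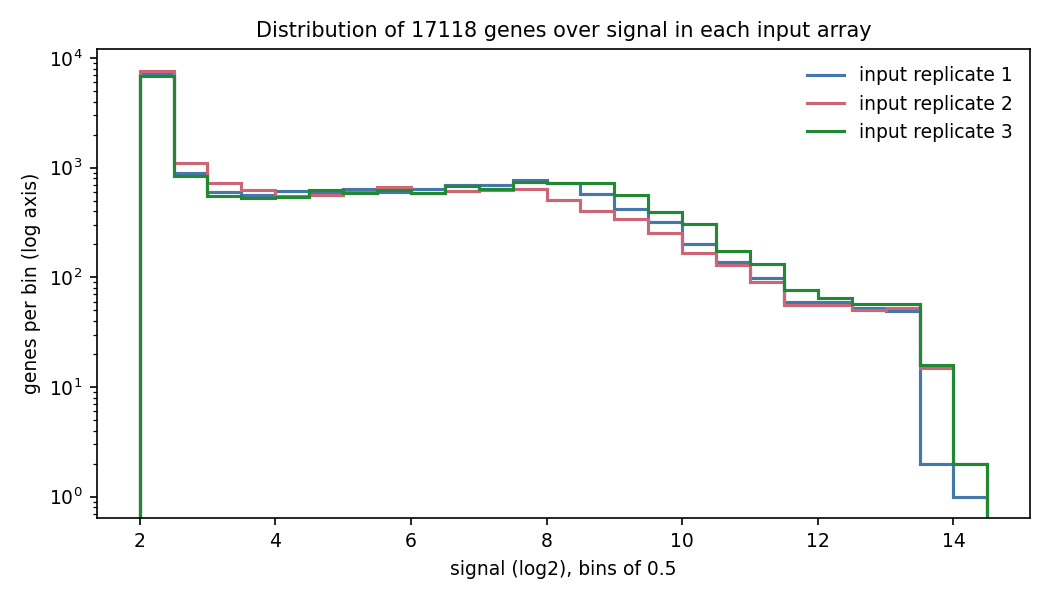
Number of genes (y axis, log scale) in bins of 0.5 log2 units of signal (x axis) for each of the 3 input arrays, with 1 probe set per gene. On each array the first bin holds the most genes, since 34.4% of genes were at the minimum on all 3, and replicate 3 has the most genes above log2 8.

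The transcript of the tagged gene was among the brighter ones. gld-1 encodes a STAR-family RNA-binding protein that represses translation in the meiotic germline, and its brighter probe set read 10.01, 9.04 and 10.42 in input replicates 1, 2 and 3, which placed it 800th of 17118 genes. Replicate 2 was the lowest of the 3. The dimmer gld-1 probe set gave 3.29, 3.04 and 3.86. The sources used here do not say which part of the gene or of the transgene either probe set matches, so these readings check neither the allele nor the tag.

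The brightest genes made ribosomes and cuticle. The gene with the highest signal was col-93, a cuticle collagen, at 14.34, 14.27 and 14.35 on the 3 arrays. It was followed by rpl-36A at 13.86 ± 0.21 and rps-3 at 13.85 ± 0.11, which encode proteins of the large and the small ribosomal subunit. The collagen sqt-3, which shapes the cuticle, came next at 13.38, 14.08 and 13.64, with the highest value in replicate 2. Among the 20 brightest genes, 17 encoded ribosomal proteins, 2 were these collagens and 1 was eef-1A.1, the elongation factor that brings aminoacyl-tRNA to the ribosome (13.54 ± 0.16). The 20th gene, rps-10, still read 13.39 ± 0.08.

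Of the 100 brightest genes, which all read log2 12.70 or more, 66 encoded ribosomal proteins, 12 cuticle collagens, 5 of the list of chaperones and translation factors, 4 major sperm proteins, 3 muscle proteins and 2 yolk proteins, with the lists overlapping in places. The 5 were eef-1A.1, eef-2, the ribosome-bound scaffold gene rack-1, the actin gene act-3 and the ubiquitin gene ubq-1. The gut contributed asp-1 and dct-16, and the eggshell contributed cpg-2. 5 of the 100 belonged to none of the lists and are named here after their values were seen. They were rpl-10a, a further ribosomal protein gene by name (12.88 ± 0.15), icd-1 and icd-2, the subunits of the complex that binds nascent chains at the ribosome (12.74 ± 0.09 and 12.88 ± 0.33), ahcy-1, which hydrolyses adenosylhomocysteine (12.82 ± 0.05), and sip-1, a small heat shock protein (12.81 ± 0.16). The array maker marks 75 of the 100 probe sets as matching more than 1 transcript, against 6711 of all 22625 on the array, so the signal of many of them may pool related genes.

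Ribosomal protein genes had the highest median of the 40 lists of genes. The median of 62 measured genes was 13.11, and 61 of the 62 read log2 11 or more. The exception was rpl-42 at the minimum. A wider name pattern, written after the values were seen to take in symbols with a letter suffix, gave 80 genes with a median of 13.12. The list of chaperones and translation factors (27 genes, with actin and ubiquitin genes among them) had a median of 11.77, led by eef-1A.1, by eef-2, which moves the ribosome along the message (12.99 ± 0.19), by act-3, a cytoplasmic actin (12.92 ± 0.30), and by ubq-1, a ubiquitin gene (12.87 ± 0.16). cct-8 and cct-3 stood at 3.52 ± 0.25 and 3.08 ± 0.32, although their partners in the same ring complex, cct-1 and cct-4, read 10.91 ± 0.31 and 10.54 ± 0.23.

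Energy metabolism followed. All 32 measured genes of glycolysis, the citric acid cycle and ATP exchange read log2 7 or more, with a median of 10.11. The brightest were atp-2 and atp-5, subunits of the mitochondrial ATP synthase, at 12.63 ± 0.09 and 12.36 ± 0.15, and aldo-2, a fructose bisphosphate aldolase, at 12.19 ± 0.18. At the other end, the aconitase gene aco-2 read 7.65 ± 0.16 and the lactate dehydrogenase gene ldh-1 7.19 ± 0.12. The glyoxylate cycle gene icl-1, which lets worms build sugar from fat, stood at 11.33 ± 0.50. Mitochondrial DNA itself was measured by 8 genes with a median of 11.23, a set formed from the annotation after the values were seen. COX3, a cytochrome oxidase subunit and the brightest of them, read 12.37, 11.73 and 12.61, whereas ND5, a subunit of complex I, read only 3.18 ± 0.45. Proteasome subunits (33 genes, median 9.93) spanned a narrow range between the quartiles, 9.18 and 10.11. The brightest was the ATPase subunit gene rpt-3 at 10.91 ± 0.17, and rpn-6.2, a copy of the lid subunit gene rpn-6.1, stood apart at 6.37 ± 0.50 against 8.91 ± 0.23 for rpn-6.1. The 18 subunits of the vacuolar proton pump had a median of 9.87, from vha-9 at 11.55 ± 0.39 to vha-5 at 5.92 ± 0.18.

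**Figure D2:**
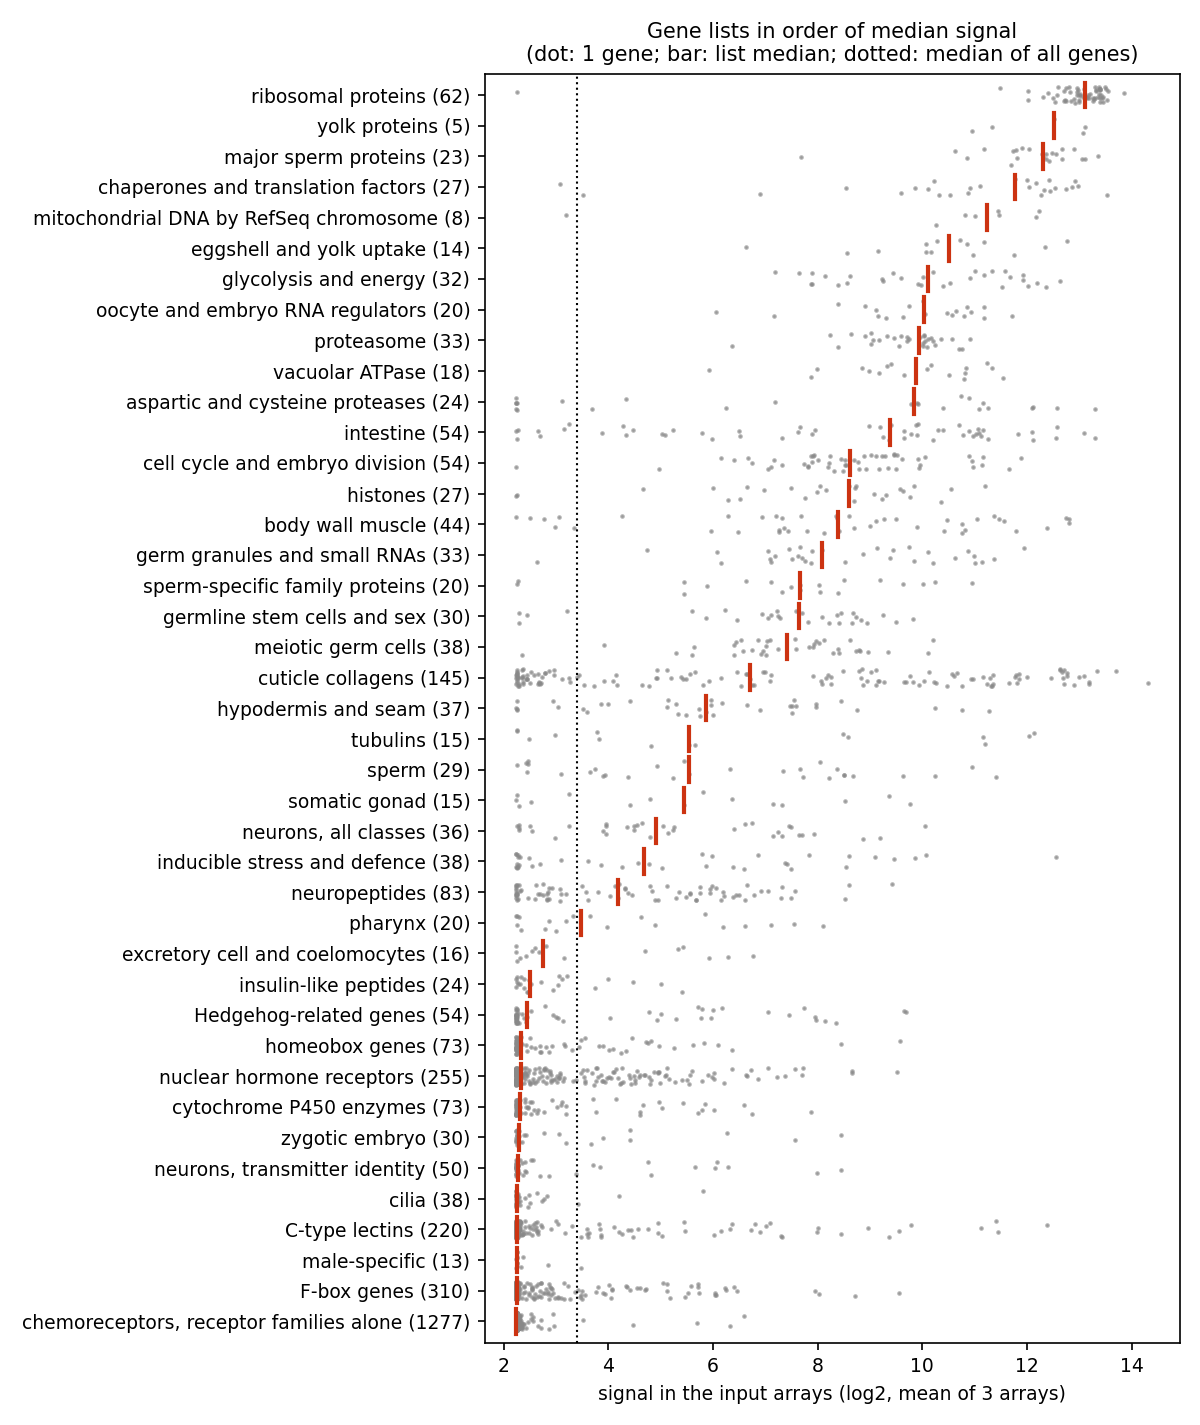
Signal of every measured gene (dots, x axis, mean of 3 arrays on the log2 scale) in each list of genes (y axis, number of genes in brackets), ordered by list median (red bar), with the median of all genes as a dotted line. Ribosomal proteins lie at the top with a median of 13.11, and the collagens spread over nearly the whole range. The transmitter and cilia lists lie near the minimum. The list for neurons of all classes has a median of 4.92, above that of all genes. The chemoreceptor families and the mitochondrial set are shown as defined after the values were seen.

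Genes of oocytes were bright. The list of the eggshell, fertilization and yolk uptake, which also holds the PUF repressor gene puf-5, had 14 measured genes with a median of 10.51, and 12 of them (85.7%) read log2 9 or more. cpg-2 and cpg-1, chondroitin proteoglycans of the eggshell, led with 12.76 ± 0.17 and 12.34 ± 0.17, followed by cbd-1, a chitin-binding protein of the vitelline layer (11.76 ± 0.21). The yolk receptor gene rme-2 read 10.98 ± 0.27 and the chitin synthase gene chs-1 10.07 ± 0.24. Only pqn-74 stayed under log2 7, at 6.64 ± 0.12. None of these 14 genes was at the minimum.

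Regulators of oocytes and early embryos (20 genes) had a median of 10.04, and 16 of them read log2 9 or more. Most bind RNA, while egg-3, an egg activation protein (9.11 ± 0.21), and mbk-2, a kinase (9.63 ± 0.38), do not. pos-1, a CCCH zinc finger protein that sets blastomere fates, read 11.70, 11.47 and 11.95, with replicate 2 the lowest. spn-4, an RNA-binding protein of the early embryo, read 11.04, 11.18 and 11.32, and the PUF repressor gene puf-5 11.02, 11.15 and 11.35. oma-2 and oma-1 act redundantly in oocyte maturation, and oma-2 stood at 10.79 ± 0.23. oma-1 read 9.17, 8.77 and 9.52. The lowest of the list was lin-41, which holds oocytes in their growing state, at 6.24, 5.08 and 6.85, followed by rnp-8 at 7.17 ± 0.49.

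Germ granule and small RNA genes reached lower. The list of 33 genes had a median of 8.08, and 29 of them read log2 7 or more. cey-4, a Y-box protein of stored messages, led at 11.92, 11.61 and 12.32, followed by glh-1, a Vasa-type helicase of P granules, at 11.36 ± 0.15, and car-1, a protein of granules that hold repressed messages, at 11.15 ± 0.35. The Argonaute genes prg-1 and csr-1 read 10.11 ± 0.21 and 8.08 ± 0.45. meg-4 and meg-2, members of the family whose products scaffold germ granules in embryos, read 4.75 ± 0.22 and 2.64 ± 0.02, whereas their relative meg-1 read 9.38 ± 0.45. A probe set shared by meg-3 and meg-4, which entered no list, was brighter than that of meg-4 alone, at 7.75, 7.23 and 8.11.

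The cyclin, kinase, polarity and spindle genes (54 genes) had a median of 8.62, with 48 at log2 7 or more. par-5, a 14-3-3 protein of embryo polarity, led at 11.48, 12.10 and 12.08, and the B-type cyclin genes cyb-3 and cyb-1 read 11.67 ± 0.23 and 11.16 ± 0.27. The replication licensing gene mcm-7 read 11.14 ± 0.22. The G1 cyclin gene cye-1 was low at 4.67, 4.46 and 5.78, and cdk-2 was at the minimum.

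Meiotic genes were of middling signal, and their median SD over arrays, 0.55, was the highest of the lists. The 38 measured genes of pairing, synapsis and recombination had a median of 7.41, with 24 at log2 7 or more and 3 at log2 9 or more. Those 3 were him-3, a protein of the chromosome axis (10.20 ± 0.23), sun-1, which moves chromosome ends at the nuclear envelope (10.10 ± 0.16), and htp-1, a further axis protein (9.34 ± 0.21). him-17, a chromatin protein needed for meiotic breaks, read 8.97 ± 0.42. At the low end were dpy-28, a condensin subunit, at 3.91 ± 0.14, and the kinase gene chk-2 at 2.34 ± 0.13. The list's median was 7.53, 6.80 and 8.08 on the 3 arrays, so replicate 2 was lowest. Of the 24 genes at log2 7 or more, 24 were lower in replicate 2 than in the mean of the other 2 arrays, beside 82.4% of all genes at that level. After quantile normalization, which gives the arrays 1 common distribution, the median shift of these genes was -0.08.

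Among 30 regulators of germ cell proliferation, meiotic entry and sexual fate the median was 7.65. gld-1 was the brightest, ahead of nos-3, a Nanos relative (9.43, 9.16 and 9.91), puf-8, a PUF protein (9.25 ± 0.28), and nos-2 (8.42, 9.32 and 9.12), which was lowest in replicate 1. The Notch receptor gene glp-1, which keeps germ cells mitotic, read 8.68 ± 0.59. Its target gene sygl-1 was at the minimum (2.28 ± 0.04), while lst-1, the other target, read 8.37 ± 0.39. her-1, whose product turns worms male, was also at the minimum and read 2.23 to 2.37. The sperm fate genes fog-1 and fog-3 read 5.87 ± 0.12 and 5.61 ± 0.25, beside 8.74 ± 0.28 for fog-2.

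Histone genes (27 measured) had a median of 8.59. The 4 brightest were htz-1 (H2A.Z) at 11.21 ± 0.21, his-37 at 10.56 ± 0.33, his-72 (H3.3) at 10.35 ± 0.32 and his-74 at 9.85 ± 0.15. Tubulins (15 genes, median 5.54) were split: tba-2, tbb-2, tbb-1 and tba-1 read 12.13 ± 0.21, 12.04 ± 0.34, 11.20 ± 0.25 and 11.17 ± 0.12, whereas tba-5 and tba-6 were at the minimum.

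Sperm genes fell into a bright and a dim set. The major sperm proteins, which form the cytoskeleton of the crawling sperm and also signal to oocytes, were measured by 23 genes with a median of 12.31, and 20 of them read log2 11 or more. msp-78 read 13.22, 13.24 and 13.62, followed by msp-31 at 13.10 ± 0.14, msp-40 at 13.05 ± 0.22 and msp-55 at 12.91 ± 0.14, whereas msp-74 read 10.62 ± 0.16 and msp-32 7.69 ± 0.14. The array maker marks all 23 of these probe sets as matching several transcripts, so the members cannot be told apart. Where another probe set without that mark was used for the same genes, the 1 gene left read 2.99.

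Small sperm proteins of the related families (20 genes) had a median of 7.66. nspd-2, nspd-1, nspd-4 and ssp-10 were the brightest at 10.96 ± 0.33, 10.24 ± 0.61, 10.02 ± 0.69 and 9.64 ± 0.33, while nspd-8 and ssq-4 were at the minimum. Genes of sperm activation and fertilization were lower still. The list of 29 genes had a median of 5.54, with 13 at log2 7 or more, and its brightest member was the lectin gene clec-88 (11.31, 11.20 and 11.73). The sperm phosphatase genes gsp-3 and gsp-4 stood at 8.51 ± 0.10 and 8.38 ± 0.26, and the transcription factor gene spe-44, which drives the sperm programme, at 7.34 ± 0.23. spe-9, needed on the sperm surface to fertilize, read 2.27, 2.31 and 2.71, near the minimum. fer-1, which fuses organelles to the sperm membrane, read 3.66 ± 0.20. The sperm list and the related families share nspd-1, nspd-2, ssp-10, ssp-16, ssp-19, smz-1 and smz-2.

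The intestine gave a wide range, from some of the brightest genes to the minimum. Its products include yolk, digestive proteases, lysozymes and fatty acid desaturases. Yolk protein genes were all bright: vit-4 read 13.02, 13.15 and 13.19, vit-5 12.95, 12.99 and 13.26, vit-6 12.49, 12.23 and 12.85, vit-2 11.31, 11.01 and 11.68, and vit-1 11.02, 10.48 and 11.35. Replicate 2 was lowest for vit-6, vit-2 and vit-1 and lay between the others for vit-4 and vit-5. vit-3 had no probe set of its own, and the probe sets of vit-4 and vit-5 are marked as matching several transcripts.

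The 54 measured gut genes had a median of 9.39 with quartiles at 5.38 and 10.96, and 30 of them (55.6%) read log2 9 or more. The aspartic protease gene asp-1 read 13.02, 13.53 and 13.38, followed by dct-16 at 13.10 ± 0.12, asp-6 at 12.57 ± 0.24 and the metallothionein gene mtl-2 at 12.56 ± 0.16. The other metallothionein gene, mtl-1, read 2.70 ± 0.19. The desaturase genes fat-2, fat-1 and fat-6 stood at 11.06 ± 0.26, 10.71 ± 0.16 and 10.20 ± 0.20. The brush border actin gene act-5 read 10.77 ± 0.33. Transcription factors of the gut were low beside these products, with elt-2, the main GATA factor of the tissue, at 6.53 ± 1.04 and elt-7 at 5.25 ± 0.51. Of the gut genes 3 were at the minimum, namely lipl-4, inx-16 and cyp-35B1, which encode a lipase, a gap junction protein and a cytochrome P450.

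The wider family of aspartic and cysteine proteases (24 genes, median 9.85) held 6 members at the minimum, among them asp-7 and cpr-2, beside 7 at log2 11 or more. With the probe sets of shared sequence left out the median was 6.25.

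Body wall muscle genes covered a similar range. The 44 measured genes had a median of 8.38, 33 read log2 7 or more and 9 read log2 11 or more. The troponin C gene pat-10 read 12.79, 12.75 and 12.90, the myosin light chain gene mlc-2 12.67, 12.78 and 12.95, the paramyosin gene unc-15 12.76 ± 0.26, and the actin gene act-4 12.44, 12.04 and 12.66. Attachment genes were of middling signal, such as pat-3 (beta integrin) at 9.27 ± 0.50 and unc-112 (kindlin) at 8.40 ± 0.78. Receptors and the fate factor were low. The acetylcholine receptor subunit gene acr-16 read 2.24, 2.28 and 2.99 and unc-63 read 2.25 ± 0.03, and hlh-1, the MyoD relative, read 2.77 ± 0.42.

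The myosin heavy chain genes of body wall muscle differed most between arrays among the muscle genes. myo-3 read 6.21, 8.43 and 7.69, and unc-54 read 9.47, 11.32 and 10.46, so both were lowest in replicate 1 and highest in replicate 2. Of the 33 muscle genes at log2 7 or more, 31 were lower in replicate 2 than in the mean of the other 2 arrays, beside 82.4% of all genes at that level. Their median shift was -0.50, near the -0.47 of all genes at that level, and after quantile normalization it was -0.16.

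The pharynx, the pumping organ of the foregut, was dimmer. Its 20 genes had a median of 3.48, and 3 read log2 7 or more: the myosin gene myo-1 at 8.11 ± 0.31, the troponin I gene tni-4 at 7.55 ± 0.20 and the troponin C gene tnc-2 at 7.12 ± 0.16. phat-5, a gland gene, and inx-20, an innexin gene, were at the minimum. A probe set shared by phat-3 and phat-7, which entered no list, read 8.68, 8.10 and 8.79, whereas phat-3 alone read 3.98. The organ selector gene pha-4 read 3.18 ± 0.74.

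Cuticle collagens spread over nearly the whole range of signal. The 145 genes had a median of 6.71, with quartiles at 2.73 and 10.57, and 31 read log2 11 or more while 15 were at the minimum. After col-93 and sqt-3 the brightest were col-125 at 13.22, 13.55 and 13.25 and col-160 at 13.14, 13.21 and 13.23, and the body shape gene dpy-13 read 13.19 ± 0.07. col-75 and col-99 were among those at the minimum. The spread over the 3 arrays was small, with a median SD of 0.17 against 0.23 over all genes. Collagen probe sets often match several family members. In the 90 collagen genes with a probe set free of that mark the median was 4.41, and 20 of the 90 read log2 9 or more, against 53 of 145 with all probe sets.

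Other genes of the epidermis were lower. The list of 37 had a median of 5.88, with 3 at log2 9 or more. These were let-767, a steroid or lipid dehydrogenase (11.27 ± 0.12), ifb-1, an intermediate filament (10.76 ± 0.31), and cut-2, a cuticlin (10.25 ± 0.27). noah-1, a protein of the precuticle, read 8.76 ± 0.42 and dpy-7, a collagen gene of the furrows in the cuticle, 5.48 ± 0.15. The transcription factor gene grh-1 and the cuticlin genes cut-6 and cut-1 were at the minimum. Hedgehog-related genes (54), many of them epidermal, had a median of 2.44 with 24 at the minimum (44.4%), beside 34.4% of all genes. The brightest of the 54, grd-14 and grd-5, read 9.69 ± 0.22 and 9.66 ± 0.40.

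The 36 genes of transmitter release and neuropeptide processing, which work in all neurons or most of them, had a median of 4.92 and 2 at the minimum. snb-1, the synaptobrevin of synaptic vesicles, read 10.11, 9.59 and 10.48, followed by unc-44 (ankyrin) at 9.20 ± 0.26, unc-119 at 8.87 ± 0.33 and the kinesin adaptor gene unc-76 at 7.94 ± 0.51. Some of these genes are also used outside neurons, and the share of other tissues was not tested. rgef-1, a marker of neurons in general, was at the minimum (2.25 ± 0.03), and unc-10, an active zone protein, read 2.29 ± 0.06.

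The 50 genes that give a neuron its transmitter or its touch sense had a median of 2.27, and 29 of them (58.0%) were at the minimum. tph-1 (serotonin), cat-2 (dopamine), unc-47 (the GABA vesicle) and mec-4 (the touch channel) all read 2.24 to 2.26. Other genes for the same transmitters read higher, with bas-1 at 6.07, unc-25 at 4.77 and dat-1 at 3.84. The touch genes mec-17, mec-7 and mec-12 read 6.05, 5.65 and 4.82, whereas mec-3, mec-10 and mec-18 read 2.26, 2.27 and 2.34. Only 2 of the 50 read log2 7 or more. They were tdc-1, which makes tyramine, at 8.04, 8.73 and 8.58, and cat-4, which makes a cofactor of monoamine synthesis, at 8.23, 7.21 and 8.52. tbh-1, which turns tyramine into octopamine, followed at 6.76, 5.17 and 6.90 with replicate 2 the lowest. tdc-1 and tbh-1 are used in gonadal sheath cells as well as in a few neurons.

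Genes of sensory cilia (38) had a median of 2.26 with 24 at the minimum (63.2%), and none read log2 7 or more. daf-19, the RFX factor that switches cilia genes on, was the brightest at 5.81 ± 0.45, followed by the kinesin gene klp-11 at 4.20 ± 0.95. Neuropeptide precursors (83 genes) had a median of 4.19 with 14 at the minimum. The brightest were nlp-36 (9.43 ± 0.48), nlp-33 (8.60 ± 0.72), nlp-40 (8.52 ± 0.40), which is released from the gut, and nlp-30 (7.56 ± 0.83). The nlp-33 and nlp-30 products are antimicrobial peptides of the epidermis. Among peptides of the FMRFamide-like family flp-9 was highest, at 7.31 ± 0.13. Insulin-like peptides (24 genes) reached at most 5.42 ± 0.52, for ins-35.

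The large gene families of sensing and defence were mostly at the minimum, beside 34.4% of all genes. Among 1277 chemoreceptor genes of the seven-pass families, 1244 (97.4%) were at the minimum and none read log2 7 or more. The brightest, srr-4 and srh-237, read 6.59 ± 0.63 and 6.33 ± 0.83. The name pattern as first written took in 1326 genes, of which 4 read log2 9 or more. By their names these 4, srlf-1, srp-7, srlf-7 and srrt-1 (10.78 ± 0.22, 10.07 ± 0.35, 9.02 ± 1.05 and 9.01 ± 0.87), are not of those families, and the narrower pattern was written after this was seen.

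F-box genes (310) had 216 members at the minimum (69.7%) and 1 at log2 9 or more, fbxa-215 at 9.56 ± 0.38. C-type lectins (220) had 143 at the minimum and 7 at log2 9 or more, among them clec-87 at 12.38 ± 0.13, clec-47 at 11.44 ± 0.36, clec-63 at 11.13 ± 0.23, clec-91 at 9.78 ± 0.33 and clec-50 at 9.56 ± 0.16. Cytochrome P450 genes (73) had 37 at the minimum, and the brightest was cyp-31A2, whose product works in making the lipid layer of the eggshell, at 7.93, 7.65 and 8.07. Its relative cyp-31A3 read 6.74 ± 0.21.

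Nuclear hormone receptors (255 genes) were at the minimum in 46.7% of cases, beside 34.4% of all genes. nhr-49, a regulator of fat use, was the brightest at 9.53 ± 0.57, followed by nhr-66 and nhr-88 at 8.66 ± 0.77 and 8.66 ± 0.50. Among 73 homeobox genes 32 were at the minimum (43.8%), and the maternal Caudal-type gene pal-1 was the brightest at 9.66, 9.05 and 10.03, ahead of ceh-38 at 8.46 ± 0.73 and of ceh-18, a factor of the gonadal sheath, at 6.37 ± 0.47.

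In lists for other cells and stages the share at the minimum lay on both sides of the 34.4% of all genes. Of 13 male-specific genes 9 were at the minimum (69.2%) and the highest was mab-5 at 3.48 ± 0.36. lov-1 and pkd-2, genes of male sensory neurons, read 2.24 ± 0.03 and 2.25 ± 0.03. Among 30 factors first made in embryos 17 were at the minimum (56.7%), med-1 of the endoderm included. end-1, which acts after it, read 2.35 ± 0.08, and lin-26 and nhr-68 were the highest at 8.45 ± 0.38 and 7.57 ± 0.96. lin-26 is also an epidermal gene. Genes of the somatic gonad (15) had a median of 5.45, led by mig-6 (papilin) at 9.76 ± 0.16, the filamin gene fln-1 at 9.37 ± 0.36 and the innexin genes inx-22 and inx-14 at 8.52 ± 0.36 and 7.33 ± 0.70. Those innexins lie on the germ cell side of the junctions with the sheath, and the sheath innexin genes inx-8 and inx-9 read 7.14 ± 0.36 and 4.41 ± 0.14. lag-2, the Notch ligand of the distal tip cell, was at the minimum (2.25 ± 0.03), as was gon-1.

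The 16 genes of the excretory cell and the coelomocytes had a median of 2.75, with exc-9 the highest at 6.76 ± 0.39 and unc-122 at the minimum. Genes switched on by heat, oxidants, metals or infection (38) had a median of 4.68 and 9 at the minimum (23.7%), beside 34.4% of all genes. The heat shock genes hsp-16.2, hsp-16.41 and hsp-70 read 2.28 ± 0.07, 2.24 ± 0.03 and 2.29 ± 0.05, the infection gene pals-5 2.24 ± 0.03, and the superoxide dismutase gene sod-3 2.28 ± 0.03. Organelle chaperone genes that also work without stress were high in the same list, with hsp-4 at 10.07 ± 0.20 and hsp-6 at 9.86 ± 0.63. The detoxification gene gst-10 read 9.46 ± 0.25, and the brightest of the list was the metallothionein gene mtl-2 at 12.56 ± 0.16. Other infection and oxidant genes of the list were well above the minimum. Among them nlp-33, gcs-1, nlp-31 and gst-4 read 8.60, 7.84, 7.49 and 5.87, whereas lys-3 and clec-60 read 2.25 and 2.26.

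**Figure D3:**
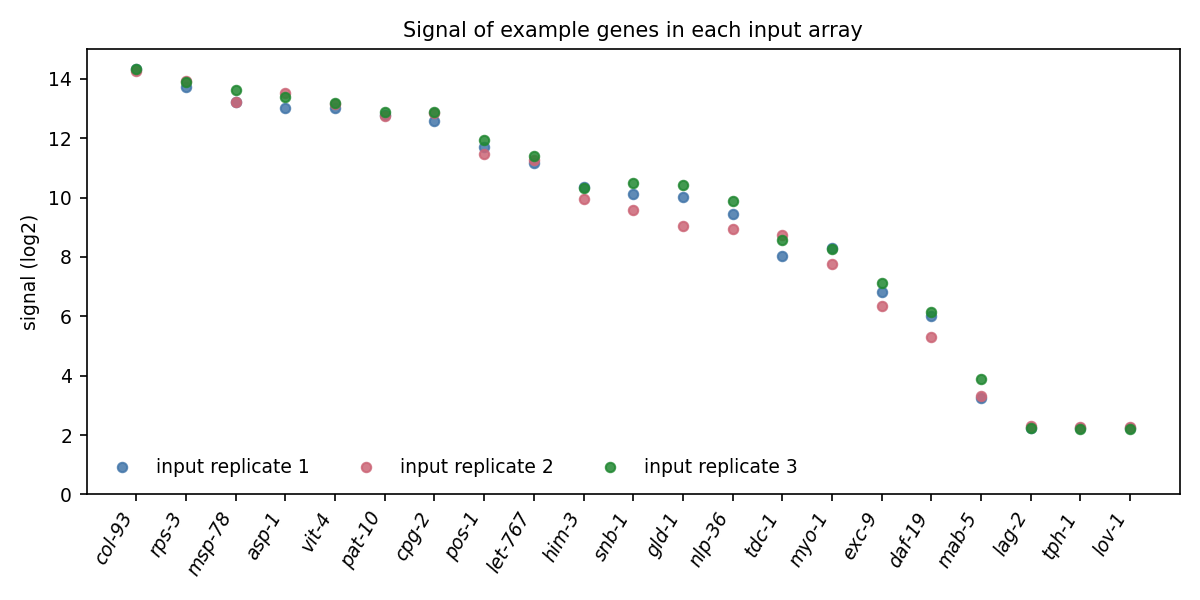
Signal (log2, y axis) in each of the 3 input arrays (points) of a gene from each of 21 roles, in order of mean signal from col-93 (cuticle) and rps-3 (ribosome) to lag-2 (distal tip cell), tph-1 (serotonin neurons) and lov-1 (male neurons). The points of 1 gene lie close together beside the range over genes, and replicate 2 is lowest for gld-1 at 9.04.

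Placed in order of median signal, the lists ran from ribosomal proteins (13.11), yolk proteins (12.52) and major sperm proteins (12.31) through eggshell (10.51), gut (9.39), muscle (8.38), germ granule (8.08) and meiotic genes (7.41) to collagens (6.71), sperm function (5.54), genes of all neurons (4.92), transmitter genes (2.27) and cilia (2.26). The median of all genes was 3.40. Neighbouring lists were often not separated by the arrays: in 24 of 39 neighbouring pairs all 3 arrays gave the same order, and in 8 pairs the 3 medians of the upper list all lay above those of the lower one. Those 8 included ribosomal above yolk, major sperm proteins above chaperones, eggshell above glycolysis, gut above cell cycle, collagens above other epidermal genes, and pharynx above excretory genes. Without probe sets of shared sequence some of these did not hold. Collagens (4.41) then lay below other epidermal genes (5.13), and gut (8.47) and cell cycle genes (8.45) were nearly level. The 1 major sperm protein gene left (2.99) lay below the median of the chaperones (11.56). Germ granule genes (8.52) were then nearly level with gut. Their lead over muscle (8.12) was within 0.52, the SD over arrays of the germ granule median with all probe sets. Yolk and major sperm proteins were not separated, nor were oocyte regulators, proteasome, vacuolar pump and proteases, nor cell cycle, histones and muscle.

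The chromosomes, assigned through the RefSeq table of WBcel235, differed in their share of genes at the minimum. It was 22.5% on chromosome I, 35.3% on II, 20.3% on III, 28.2% on IV, 51.9% on V and 34.3% on X. Chromosome V carries 884 of the chemoreceptor genes, and without such genes its share was 40.2%. The share of genes at log2 9 or more was 11.6% on I, 7.50% on II, 11.8% on III, 10.3% on IV and 5.79% on V, and it was lowest on X at 4.13%. The brightest gene of each was rps-19 on I, rpl-36A on II, col-93 on III, rps-25 on IV, sqt-3 on V and vit-4 on X.

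Among genes with a chromosome 13.8% were on X. None of the 38 meiotic, 30 stem cell and sex, 20 oocyte regulator, 14 eggshell, 54 cell cycle, 29 sperm or 23 major sperm protein genes was, while 4 of 33 germ granule and small RNA genes were. On X were also 6 of 54 gut genes and 21 of 145 collagens. Higher counts were seen in other lists, where 4 of 5 yolk protein genes, 11 of 44 muscle genes, 10 of 37 epidermal genes and 28 of 83 neuropeptide genes were on X. These counts describe lists written from general knowledge and were not tested.

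**Figure D4:**
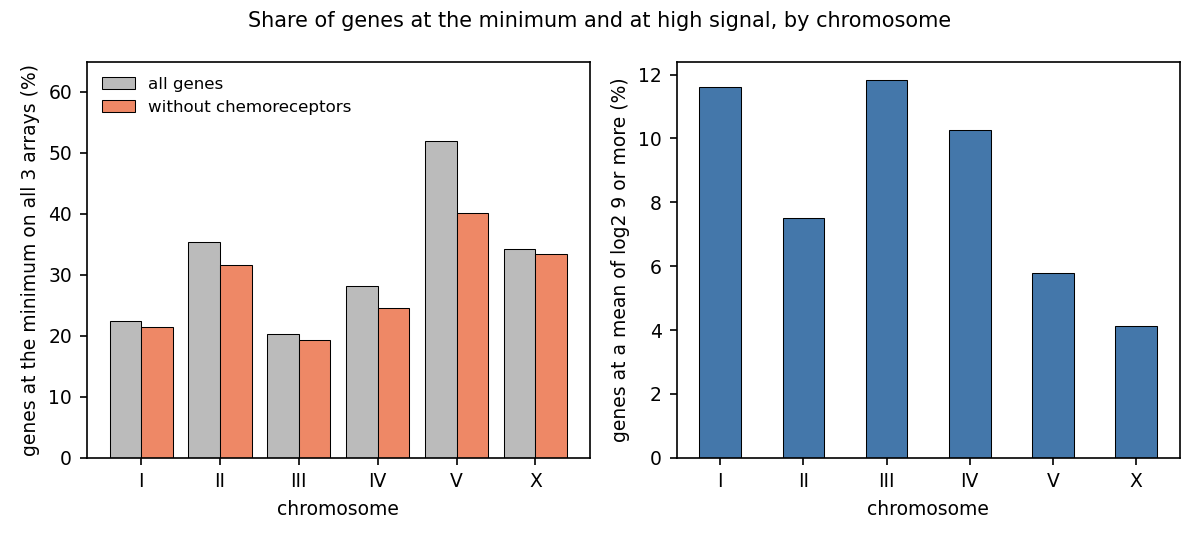
Left, the share of genes at the minimum on all 3 arrays (y axis, %) on each chromosome, for all genes (grey) and without the chemoreceptor families (orange); right, the share of genes at a mean of log2 9 or more. Chromosome V has the largest share at the minimum, 51.9% with and 40.2% without chemoreceptors, and X the smallest share of bright genes, 4.13%.

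Genes at the minimum were followed by another such gene more often than genes above it were. On the RefSeq order, the next measured protein-coding gene was at the minimum in 51.7% of 5191 cases after a gene at the minimum and in 22.8% of 10965 cases after a gene above it. Without the chemoreceptor families, which form clusters, the shares were 43.6% and 21.2%. These shares pool the chromosomes, which differed in their own share at the minimum, and no other family was left out. Of 871 pseudogenes 76.2% were at the minimum, against 32.1% of 16170 protein-coding genes, and 8 pseudogenes read log2 9 or more.

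Replicate 2 read lower and replicate 3 higher than the other arrays over much of the range. Across probe sets the SD over the 3 arrays had a median of 0.23. It was 0.03 in probe sets at the minimum, 0.36 above it and under log2 5, 0.56 from log2 5 to 7, 0.44 from 7 to 9, 0.29 from 9 to 11 and 0.18 at 11 or more, so probe sets of middling signal varied most. Replicates 1 and 3 were the closest pair at log2 5 or more, where 8566 probe sets differed by a median of 0.38, against 0.50 for replicates 1 and 2 and 0.79 for replicates 2 and 3. Over all probe sets, those at the minimum included, replicates 1 and 2 were closest, with a median difference of 0.17 against 0.18 for 1 and 3 and 0.26 for 2 and 3. Replicate 2 had 4298 probe sets at log2 7 or more, beside 5334 and 6011 in replicates 1 and 3.

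Among the 4083 genes at a mean of log2 7 or more, 82.4% were lower in replicate 2 than in the mean of the other 2 arrays. For 844 genes (20.7%) the gap was 1 or more, whereas 4 genes were higher in replicate 2 by that much. The median shift of these genes was -0.47 in replicate 2, 0.53 in replicate 3 and -0.04 in replicate 1, and 374 of them were higher by 1 or more in replicate 3. The shift depended on signal: its median was -0.94 for genes from log2 4 to 5, -0.73 from 7 to 8, -0.35 from 9 to 10 and 0.05 at 12 or more. Replicate 3 was higher by a median of 0.75 at log2 4 to 5 and of 0.17 at 12 or more.

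**Figure D5:**
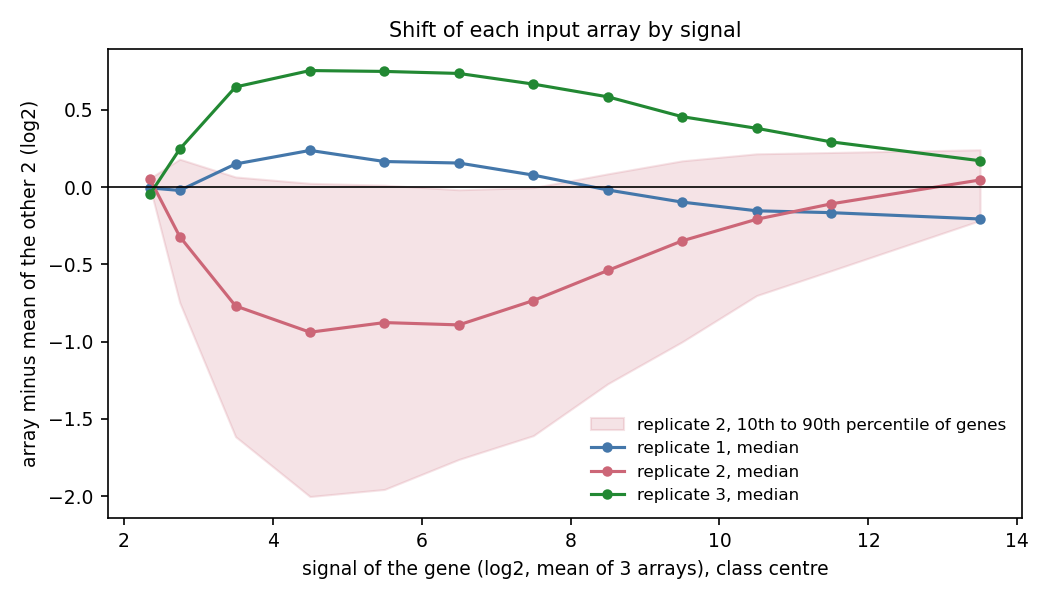
Median over genes of each input array minus the mean of the other 2 (log2, y axis), by class of mean signal (x axis), with the range from the 10th to the 90th percentile of genes for replicate 2. Replicate 2 is lower by up to 0.94 in the middle of the range and level with the others at the top, and replicate 3 is higher throughout above the minimum.

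After quantile normalization 165 of 4077 genes were still lower in replicate 2 by 1 or more and 45 were higher. In 780 genes with more than 1 probe set of their own at log2 7 or more, the shift of replicate 2 in the dimmest and in the brightest probe set correlated across genes (r = 0.80, and 0.73 in 777 genes after quantile normalization), which are not independent replicates. Of 110 genes whose brightest probe set was lower in replicate 2 by 1 or more, all 110 had a dimmest probe set that was lower too. In 72 of the 110 it was lower by 1 or more. For comparison, 82.4% of all 4083 genes at log2 7 or more were lower in replicate 2, and 20.7% by 1 or more. By span of the gene in the annotation, the median shift of replicate 2 ran from -0.20 in the shortest of 5 groups of equal size to -0.69 in the longest, while the median signal ran from 9.18 to 8.06. After quantile normalization it ran from 0.07 to -0.12.

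Among genes at a mean of log2 7 or more, the 10 with the largest spread were all low in replicate 2. sluh-7, named for a splicing factor, read 8.63, 5.76 and 8.64, H40L08.2 read 9.11, 6.66 and 9.62, and hmg-4, a subunit of the FACT histone chaperone, read 8.79, 6.40 and 9.19. figo-1, sike-1, thoc-2 (a subunit of the THO complex for RNA export), san-1 (a spindle checkpoint protein), pqn-70, apb-3 (a clathrin adaptor subunit) and ddo-2 completed the 10. F54C9.9, C14C10.1 and K05F1.9 were furthest above the others in replicate 1 after sluh-7 at that level, and read 5.49, 5.46 and 5.73 in replicate 2.

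At the same level, genes higher in replicate 2 by 1 or more were myo-3, unc-54, the lectin gene clec-41 (6.41, 7.77 and 7.12) and C16C8.11 (6.96, 8.16 and 7.32). In replicate 1 marc-3 was also low, at 8.83, 9.53 and 9.99. Replicate 3 had 0 of these 4083 genes lower by 1 or more, and its lowest were C18D11.1 (7.36, 7.78 and 6.84), nop-1 (7.65, 7.36 and 6.82), gcy-28 (7.71, 7.26 and 6.91) and tdpt-1 (7.19, 7.65 and 6.93).

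Measures of RNA and hybridization on the same arrays were as follows, and their part in these shifts was not tested. The 18 hybridization controls had means of 7.43, 7.96 and 8.07. The 3′ probe set of the Gapdh control exceeded the 5′ one by 1.46, 1.25 and 1.65, that of ubiquitin by 3.50, 3.19 and 3.39, and that of actin by 2.60, 2.67 and 2.74, so replicate 2 was lowest for Gapdh and ubiquitin and lay between the others for actin. Among lists, the median shift of replicate 2 was -0.87 for meiotic genes, -0.68 for genes of all neurons, -0.50 for germ granule genes and -0.45 for cell cycle genes, against 0.05 for ribosomal proteins, 0.05 for collagens and 0.15 for major sperm proteins. It was -0.08 over all genes, those at the minimum included, and -0.47 over genes at log2 7 or more. In members at log2 7 or more after quantile normalization it was -0.08 for meiotic, -0.01 for germ granule and 0.08 for cell cycle genes, so the last changed sign.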

How the data were processed

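The deposited table gives log2 signal from an Affymetrix C. elegans array. Per the submitters' processing notes, GCRMA was used, which adjusts the background and summarizes probes, with no version given. Values were used as deposited, with no filter. Groups came from the sample titles. Platform annotation gave 20766 probe sets 1 gene symbol, 887 several and 895 none, and 77 array controls were left out. RefSeq of WBcel235, joined by Entrez ID, gave chromosomes and neighbours, and no position is printed because the sources used here name no build for the array. Medians, SDs and counts were computed with Python 3.11.15, pandas 2.3.3 and numpy 2.4.6, and tested on simulated data. With 1 group of 3 arrays no test was run, the number of arrays limits the precision, and saturation could not be judged.

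The arrays and the 41 lists of genes were chosen with earlier results of these data known. One list, of the mitochondrial genome by name, matched 0 genes. Named genes were gld-1, the 20 brightest, the 4 highest and 2 lowest of each list, bright members of lists mostly at the minimum, the 10 with the largest SD and the 4 furthest above and below in each array, both among genes at a mean of log2 7 or more, the brightest of each chromosome and the vit genes. Other genes were picked as examples of a role after their values were seen. Listed symbols with no probe set of their own, such as vit-3, egg-4 and egg-5, were left out.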

Additional observations from a re-analysis of the deposited data

How the results depend on the processing

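Probe sets of shared sequence were left out first. Probe sets at log2 7 or more on all 3 arrays then numbered 2029 (4174 with them), and the median SD over arrays was 0.134 (0.227 as reported). The share of genes at the minimum was 59.0% on chromosome V and 39.3% on X, and 9 lists moved by more than 2 places in the order. Tubulins fell to a median of 2.73 (6 of 15 genes left) and proteases to 6.25 (17 of 24), whereas germ granule genes rose from 8.08 to 8.52 (23 of 33). Of the 23 major sperm protein genes only 1 was left, at 2.99, so the new place of that list rests on 1 gene. With the mean of all own probe sets of a gene, 9 of 40 list medians fell by more than their spread over arrays, by up to 1.19. By the same measure 20 medians fell without probe sets of shared sequence, and 3 rose after quantile normalization. Without replicate 1, 1 rose and 2 fell, without replicate 2, 2 fell, and without replicate 3, 2 rose and 2 fell. In the order, 0 lists moved by more than 2 places except when probe sets of shared sequence were left out. With a cutoff of log2 5 or log2 9, 7522 or 1456 probe sets passed. The median SD was 0.139 after quantile normalization, 0.478 after centring on array medians and 0.429 in probe sets at log2 5 or more, and 0.117 to 0.183 with 1 array left out. Chromosomes V and X had 58.2% and 44.2% of genes within 0.5 of the lowest value, and 72.3% and 65.4% below log2 5. In replicate 2, 14 lists had a median shift of -0.3 or lower as deposited, 1 after quantile normalization, 0 after centring and 27 with members at log2 5 or more, and 5 with members at log2 7 or more after quantile normalization, an alternative chosen after seeing the data. Centring adds 1 constant to each array, so it moves all lists together. No paired analysis was possible because there was 1 group. A planned description of promoter motifs and protein lengths by signal was not run, since no sequence was used here. Signal over background limits genes near the minimum, which have no order among themselves.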

Other observations

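Probe sets with several gene symbols or none entered no list. Of 887 with several, 342 (38.6%) were at the minimum and 97 read log2 9 or more. The brightest probe set on the array was annotated to the collagen genes col-92 and col-94 and read 14.27, 14.47 and 14.38, above col-93 on replicates 2 and 3 and below it on replicate 1. A probe set shared by rpl-8 and B0250.3 read 14.10 ± 0.13 (SD, n = 3), and one shared by rpl-37.1 and rpl-37.2 read 13.41 ± 0.17. Some probe sets shared by listed genes were also bright. The egg activation genes egg-4 and egg-5 read 10.35 and 10.32 on their 2 shared probe sets, a probe set of the PUF genes puf-6 and puf-7 read 11.39 and one that also matches puf-10 read 9.46, and the sperm genes ssp-9 and ssp-11 read 11.21. In contrast, the probe set shared by the heat shock genes hsp-16.1 and hsp-16.11 read 2.74. That shared by hsp-16.48 and hsp-16.49 was also low but further above the minimum, with a mean of 3.96 and its highest value in replicate 3.

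Of 895 probe sets with no symbol, 596 (66.6%) were at the minimum and 21 read log2 9 or more. The brightest read 12.72, 13.01 and 13.02, and the next read 10.91, 10.52 and 10.95. Which genes they measure was not analysed here.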
